A study of Macaca mulatta with 16 samples.

Results

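The VEGF and angiopoietin ligands and receptors were examined in the fetal lungs of 16 rhesus macaques. The genes were 10 symbols chosen by name, namely VEGFA, VEGFC, PGF, KDR, FLT1, ANGPT1, ANGPT2, TEK, TIE1 and APLN, and 9 of them matched a row among the 22515 genes of the count table. APLN, which encodes the peptide apelin, matched no row and was skipped. Each animal contributed 1 library of whole left-lung RNA. The 4 preterm controls and the 2 term controls had no intervention and were delivered at 131 to 135 and at 156 and 157 days of gestation. In the LPS 16h group, 4 fetuses received 1 mg of intraamniotic E. coli lipopolysaccharide (LPS), a bacterial inflammatory agent, at 129 or 130 days and were delivered 16 hours later. In the LPS 5d group, 3 fetuses received the same 1 mg at 126 to 129 days and were delivered after 5 days. In the LPS + Beta-Ac group, 3 fetuses received that LPS at 126 or 127 days, their dams were given 0.125 mg/kg of intramuscular betamethasone acetate (Beta-Ac), a corticosteroid, and delivery followed after 5 days. The labels give no genotype, sex or sequencing batch.

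VEGFA is the main growth factor for endothelial cells, and in the lung it comes largely from the alveolar epithelium. It signals through KDR, the principal signaling receptor of blood vessels, while FLT1 binds VEGFA and PGF tightly, signals weakly and also exists as a secreted form that traps ligand. ANGPT1, made mostly by mural and mesenchymal cells, activates the endothelial receptor TEK and keeps vessels stable. ANGPT2, stored and released by endothelial cells, often opposes ANGPT1 at TEK, and TIE1 is a partner receptor of TEK. These pathways build the capillary bed around the distal airspaces as the lung passes through the saccular stage.

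Library totals ran from 20.2 to 28.3 M counts in 4 groups and from 30.6 to 48.1 M in LPS 16h, so depth and the 16-hour exposure cannot be told apart. Among the 12 animals without LPS 16h, preterm control 4 and term control 1 scored highest on the second principal component. Their scores were 53.5 and 54.1, with the next at 30.7. Test results that changed without this pair are given with both values. All 14 pan-endothelial markers were detected in the tissue, and their summed level was 3360 to 4220 CPM (counts per M library counts) in preterm controls against 2570 to 3370 in LPS 16h, 2360 to 3050 in LPS 5d, 2530 to 3190 in LPS + Beta-Ac and 2250 to 2970 in term controls. The 8 leukocyte markers summed to 93.0 to 121 CPM in preterm controls and to 1750 to 2380 CPM in LPS 16h, against 168 to 235 in LPS 5d, 379 to 651 in LPS + Beta-Ac and 243 to 304 in term controls. The part of these cell mixtures in the results below was not tested, and in whole tissue fewer cells of a type and less RNA per cell cannot be told apart. Each p-value rests on the spread between these animals.

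Exposure to LPS was accompanied by lower KDR, ANGPT1 and TIE1 at 16 hours and by lower ANGPT1 and ANGPT2 at 5 days. VEGFA did not pass the main test. The results for ANGPT1 at 16 hours and for both genes in LPS 5d were lost when certain single animals were left out. With the mean of the pan-endothelial markers as a covariate, KDR at 16 hours was the 1 gene of the 9 that passed against preterm controls. Levels are CPM after scaling of library size, given as mean ± SD. A gene passed at a Benjamini-Hochberg adjusted p below 0.05 (limma, over 19199 genes) and was called when it also differed by at least 2-fold. In LPS 16h, 3 of the 9 genes passed against preterm controls, all lower, and 1 was called, where 38.3% of all genes passed and 14.4% were called. In LPS 5d, 2 of 9 passed, both lower, and 0 were called, against 14.7% and 4.83% of all genes. In LPS + Beta-Ac, 3 of 9 passed, all lower, and 1 was called, against 17.3% and 6.50%. In term controls, 1 of 9 passed, lower, and 0 were called, against 3.99% and 2.07%. The median log2 fold change of the 9 genes was -0.25 in LPS 16h, -0.29 in LPS 5d, -0.35 in LPS + Beta-Ac and -0.31 in term controls, where that of all genes was between -0.09 and -0.002. At 16 hours, the share of the 9 genes that passed lay near that of all genes. These 4 comparisons share the same preterm controls.

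**Figure D1:**
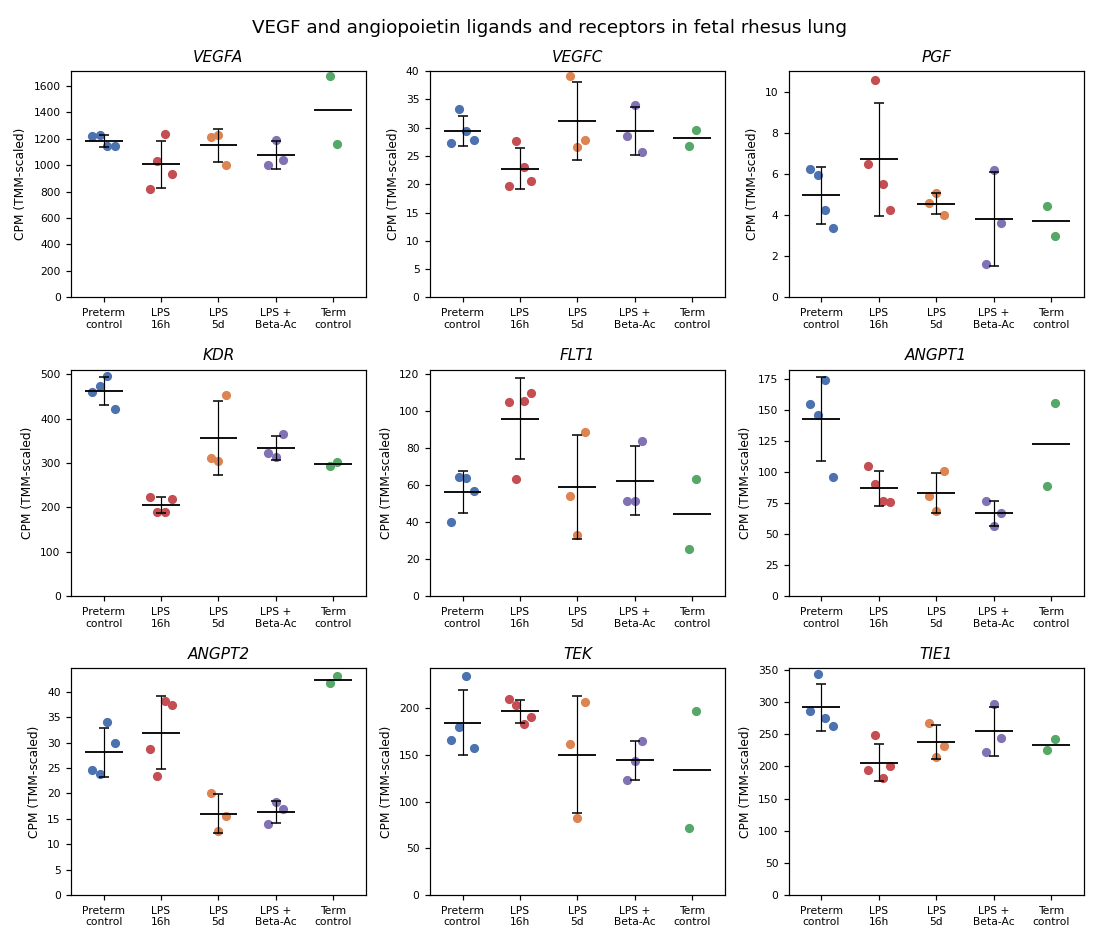
Level of each gene in each animal (points, scaled CPM on a linear axis from 0) by group, with the group mean (line) and SD (bar, groups of 3 or 4 animals). KDR in LPS 16h (189.9 to 223 CPM) lies below all other animals, and ANGPT2 in the LPS 5d and LPS + Beta-Ac groups (12.5 to 20.1 CPM) lies below both control groups.

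**Figure D2:**
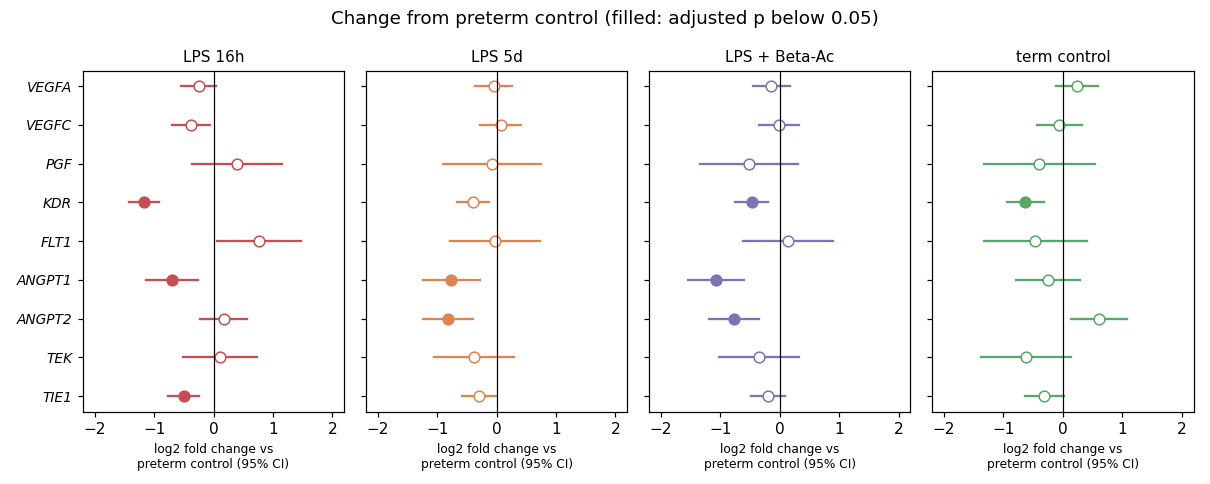
Log2 fold change of each gene against preterm controls in the other 4 groups (points) with its 95% confidence interval (lines); filled points have an adjusted p below 0.05. All filled points lie below 0, and the points of VEGFA lie between -0.25 and 0.23.

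Among the ligands of the VEGF receptors, VEGFA was abundant and did not pass against preterm controls in any group. Preterm controls had 1223, 1225, 1147 and 1143 CPM (1184 ± 45.8, n = 4), and LPS 16h had 819.9, 1033, 1235 and 933 CPM (1005 ± 176, n = 4). LPS 5d had 1215, 1227 and 1004 CPM, LPS + Beta-Ac had 999.7, 1192 and 1036 CPM, and term controls had 1670 and 1157 CPM. The ranges of the groups overlapped, although 1 term control stood above all other animals. The LPS 16h animals at 819.9, 1033 and 933 CPM lay below every preterm control. In LPS 16h VEGFA differed by a log2 fold change of -0.25 ± 0.14 (SE), with an adjusted p of 0.161 and a 95% interval from -0.54 to 0.04 (limma). With libraries scaled to their total counts it was -0.46 and passed (adjusted p = 0.00777, limma). That scaling moved the median of all genes in this comparison to -0.29, and VEGFA was -0.17 relative to it. In term controls the log2 fold change of VEGFA was 0.23 ± 0.17 (adjusted p = 0.504, limma). Without preterm control 4 and term control 1 it was -0.05. Counts were summed over transcripts, so the isoforms of VEGFA, which differ in their binding to matrix, could not be separated.

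VEGFC, the ligand of lymphatic growth that binds FLT4 and KDR, was low in LPS 16h, at 19.6, 27.7, 23.0 and 20.6 CPM. Preterm controls had 27.4, 33.2, 29.4 and 27.8 CPM (29.4 ± 2.68, n = 4), and only the highest LPS 16h animal reached their range. A log2 fold change of -0.38 ± 0.15 was measured, and the adjusted p of 0.0529 missed the threshold (limma). It passed without LPS 16h animal 2 (-0.45, adjusted p = 0.0230, limma) and with libraries scaled to their total counts (-0.59, 0.00363). That scaling moved the median of all genes in this comparison to -0.29, and VEGFC was -0.30 relative to it. With the mean of the pan-endothelial markers as a covariate, VEGFC was -0.05 (adjusted p = 0.913, limma). LPS 5d had 39.1, 26.6 and 27.9 CPM, and against that group LPS 16h was lower by -0.45 ± 0.16 on the log2 scale (adjusted p = 0.04, limma), although the ranges overlapped. This call was lost without LPS 16h animal 1 (adjusted p = 0.0996), 3 (0.0627) or 4 (0.0941), without LPS 5d animal 1 (0.230), and without preterm control 4 and term control 1 together (0.0522). It was also lost in a fit of these 2 groups alone (0.0991) and with the endothelial covariate (0.058). LPS + Beta-Ac had 28.5, 34.1 and 25.7 CPM and term controls had 26.7 and 29.6 CPM, within or next to the preterm range.

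PGF, placental growth factor, binds FLT1 and not KDR and had the lowest counts of the 9 genes, from 43 to 397 per library. It ranged from 3.38 to 6.27 CPM in preterm controls, 4.28 to 10.6 in LPS 16h, 4.03 to 5.07 in LPS 5d, 1.62 to 6.23 in LPS + Beta-Ac and 2.97 to 4.45 in term controls. All groups overlapped and PGF passed in 0 of 8 comparisons (limma), with a lowest unadjusted p of 0.195. Its log2 fold change in LPS 16h was 0.39 ± 0.36, with an interval from -0.37 to 1.16, so a change of 2-fold could not be told from none at this spread. It was 0.18 without LPS 16h animal 2 and 1.28 (adjusted p = 0.127, limma) with the mean of the pan-endothelial markers as a covariate.

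KDR, the main signaling receptor for VEGFA, had the lowest adjusted p of the 9 genes. Preterm controls had 461, 473, 495 and 421 CPM (463 ± 31.0, n = 4). LPS 16h had 223, 189.9, 191 and 219 CPM (206 ± 17.9, n = 4), and each of these animals was below each of the other 12. KDR thereby fell 2.25-fold at 16 hours (log2 fold change -1.17 ± 0.12, adjusted p = 2.25e-06, limma). It was the 1 gene of the 9 called in this comparison, and it was called in each of the fits that left out 1 animal.

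At 5 days after LPS, KDR was 311, 305 and 454 CPM (356 ± 84.2, n = 3), so 2 animals lay below all preterm controls and 1 lay inside their range. The log2 fold change of -0.40 ± 0.13 missed the threshold (adjusted p = 0.0518, limma). It was -0.59 (adjusted p = 0.00476) without the highest animal, LPS 5d 3, and -0.44 (0.0457) without preterm control 4. In the other direction it was -0.30 (0.239) without LPS 5d animal 2, -0.31 (0.214) without LPS 5d animal 1 and -0.30 (0.446) with the endothelial covariate. LPS + Beta-Ac had 324, 314 and 365 CPM, all below the preterm controls, and passed at -0.47 ± 0.13 (adjusted p = 0.0207, limma). That call was lost without preterm control 3 (adjusted p = 0.0589), LPS + Beta-Ac animal 1 (0.0758) or LPS + Beta-Ac animal 2 (0.112), or with the endothelial covariate (-0.39, 0.198). Term controls had 294 and 302 CPM, also below all preterm controls, with a log2 fold change of -0.63 ± 0.15 (adjusted p = 0.0287, limma). This call was lost without preterm control 1 (0.0649), 2 (0.0607) or 3 (0.0747) and without term control 1 (0.173) or 2 (0.101). It was lost as well without preterm control 4 and term control 1 together (-0.66, 0.121), in a fit of these 2 groups alone (-0.61, 0.0508), with libraries scaled to their total counts (-0.56, 0.0733) and with the endothelial covariate (-0.52, 0.406). The order of means was preterm control, LPS 5d, LPS + Beta-Ac, term control and LPS 16h, and LPS 5d was the 1 group whose range overlapped those of its neighbors. Against LPS 5d, LPS 16h was lower by -0.77 ± 0.13 without overlap (adjusted p = 0.000297, limma).

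FLT1, the receptor that binds VEGFA and PGF with little signaling, was at 40.0, 64.3, 63.5 and 56.6 CPM in preterm controls (56.1 ± 11.3, n = 4). LPS 16h had 105, 63.2, 106 and 109.8 CPM (95.8 ± 21.9, n = 4), so 3 animals were above all preterm controls and animal 2 was inside their range. The log2 fold change was 0.76 ± 0.33 and did not pass (adjusted p = 0.0820, 95% interval 0.06 to 1.47, limma). Without LPS 16h animal 2 it was 0.98 and passed (adjusted p = 0.0410), and in a fit of these 2 groups alone it was 0.81 and passed (0.0166). With libraries scaled to their total counts it was 0.56 (0.212), without preterm control 1 it was 0.61 (0.199), and with the endothelial covariate it was 1.32 (0.116). FLT1 was 54.2, 33.2 and 88.8 CPM in LPS 5d, 51.5, 51.5 and 84.0 CPM in LPS + Beta-Ac and 25.2 and 63.5 CPM in term controls, which all overlapped the preterm controls. The lowest values were those of term control 1 and LPS 5d animal 2, which were also the lowest for TEK. FLT1 is also expressed by monocytes and macrophages. The leukocyte marker sums above were highest in LPS 16h, where most of the sum was S100A8 and S100A9 (means 505 and 958 CPM). CD68 and CSF1R, the monocyte and macrophage markers of that list, averaged 30.6 and 92.4 CPM in LPS 16h. They were higher in LPS + Beta-Ac, at 99.3 and 128 CPM, and were 15.8 and 31.2 CPM in preterm controls. The part of these cells in the level of FLT1 was not tested. The membrane and secreted forms of FLT1 could not be separated in gene-level counts.

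Within each animal, the log2 ratio of FLT1 to KDR was -3.53, -2.88, -2.96 and -2.89 in preterm controls (-3.06 ± 0.31). It was -1.09, -1.59, -0.85 and -0.99 in LPS 16h (-1.13 ± 0.32), above every other animal of the series. The ratio was -2.52, -3.20 and -2.35 in LPS 5d, -2.65, -2.61 and -2.12 in LPS + Beta-Ac, and -3.54 and -2.25 in term controls. Ratios are given as a description, and they do not compare the amounts of the 2 transcripts, since counts were not adjusted for length.

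**Figure D3:**
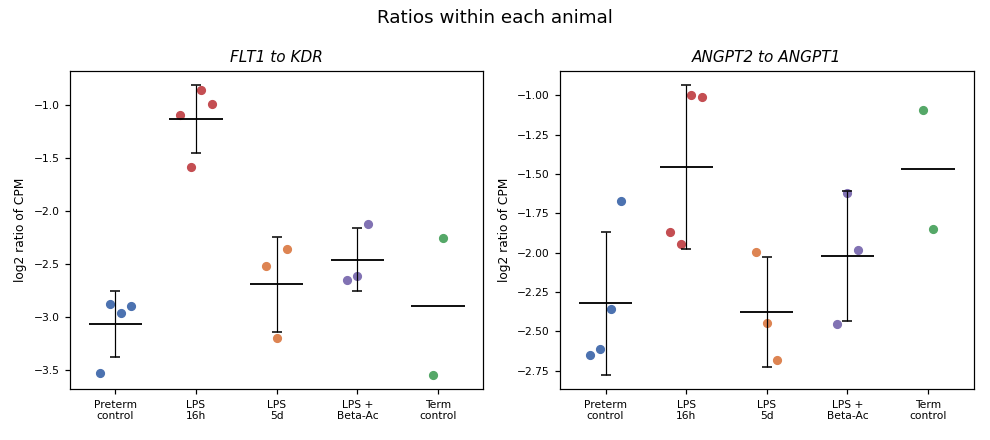
Log2 ratio of FLT1 to KDR (left) and of ANGPT2 to ANGPT1 (right) in each animal (points), by group, with mean (line) and SD (bar, groups of 3 or 4). The FLT1 to KDR ratio of the 4 LPS 16h animals (-1.59 to -0.85) lies above that of the other 12, while the ANGPT2 to ANGPT1 ratios overlap.

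ANGPT1, the ligand that activates TEK, was lower in all 3 LPS-exposed groups than in preterm controls, which had 155, 146, 174 and 95.6 CPM (143 ± 33.6, n = 4). LPS 16h had 105, 90.2, 76.6 and 75.4 CPM (86.8 ± 13.8, n = 4), a log2 fold change of -0.70 ± 0.21 (adjusted p = 0.0151, limma). The ranges overlapped only through preterm control 4, and the call was lost without preterm control 3 (adjusted p = 0.0517). LPS 5d had 80.2, 68.6 and 100 CPM, a log2 fold change of -0.76 ± 0.22 (adjusted p = 0.0319, limma). That call was lost without preterm control 1 (0.0805), 2 (0.0704) or 3 (0.0933) and without LPS 5d animal 1 (0.0948) or 2 (0.145).

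In LPS + Beta-Ac, ANGPT1 was 76.4, 56.3 and 66.8 CPM (66.5 ± 10.1, n = 3), below every preterm control. It was the 1 gene of the 9 called there, at -1.08 ± 0.22 (2.11-fold lower, adjusted p = 0.00383, limma). Without preterm control 3 it was -0.97 (adjusted p = 0.0146) and without LPS + Beta-Ac animal 2 it was -0.93 (0.0291), which passed the test but fell short of 2-fold. Term controls had 89.0 and 155 CPM, spread across the preterm range. The difference between LPS + Beta-Ac and term controls was -0.83 ± 0.27 and did not pass (adjusted p = 0.167, limma), but was -1.23 (0.0443) without preterm control 4 and term control 1.

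ANGPT2, the endothelial ligand that can oppose ANGPT1 at TEK, was low 5 days after LPS with or without Beta-Ac and highest at term. Preterm controls had 24.6, 23.8, 34.0 and 29.9 CPM (28.1 ± 4.78, n = 4). LPS 5d had 20.1, 12.5 and 15.6 CPM (16.0 ± 3.80, n = 3) and LPS + Beta-Ac had 13.9, 18.2 and 16.8 CPM (16.3 ± 2.2, n = 3), all below every preterm control. The fall was 1.76-fold in LPS 5d (log2 fold change -0.82 ± 0.20, adjusted p = 0.0128, limma) and 1.71-fold in LPS + Beta-Ac (-0.77 ± 0.20, adjusted p = 0.0140). The first was lost without LPS 5d animal 2 (adjusted p = 0.0798) and the second without LPS + Beta-Ac animal 1 (0.0747).

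At 16 hours ANGPT2 was 28.7, 23.3, 38.3 and 37.4 CPM (31.9 ± 7.17, n = 4), which overlapped the preterm controls. The log2 fold change of 0.17 ± 0.18 did not pass (adjusted p = 0.497, limma), and it was -0.03 with libraries scaled to their total counts. Against LPS 5d, LPS 16h was higher by 0.99 ± 0.20 without overlap (adjusted p = 0.00122, limma), just under 2-fold. Without LPS 16h animal 1 (1.03), LPS 16h animal 2 (1.13) or LPS 5d animal 1 (1.16), the difference was past 2-fold.

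Term controls had 41.8 and 43.1 CPM of ANGPT2, above every other animal, and the log2 fold change against preterm controls was 0.61 ± 0.22 (adjusted p = 0.148, limma), which did not pass. LPS 5d was 2.68-fold below term controls (-1.42 ± 0.24, adjusted p = 0.0398, limma), and LPS + Beta-Ac was 2.60-fold below them (-1.38 ± 0.24, adjusted p = 0.0192). ANGPT2 was the 1 gene of the 9 that passed and was called in each of these comparisons, where 0.0990% of all genes passed and 0.0625% were called for LPS 5d and 0.734% and 0.568% for LPS + Beta-Ac. Both calls depended on single animals. For LPS 5d the call was lost without term control 1 (0.117) or 2 (0.169), without LPS 5d animal 1 (0.0563), 2 (0.111) or 3 (0.116), and with the endothelial covariate (0.0535). For LPS + Beta-Ac it was lost without term control 1 (0.0538) or 2 (0.128) and without LPS + Beta-Ac animal 1 (0.0731). Neither passed in fits of only the 2 groups compared (0.214 and 0.0882) or without preterm control 4 and term control 1 (0.154 and 0.0660). The log2 fold change stayed between -1.60 and -1.26 for LPS 5d and between -1.47 and -1.27 for LPS + Beta-Ac under all alternatives run.

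The log2 ratio of ANGPT2 to ANGPT1 was -2.65, -2.61, -2.36 and -1.67 in preterm controls and -1.87, -1.95, -1.0 and -1.01 in LPS 16h. It was -2.0, -2.45 and -2.68 in LPS 5d, -2.45, -1.62 and -1.99 in LPS + Beta-Ac, and -1.09 and -1.85 in term controls. At 5 days both ligands were low and the ratio overlapped that of preterm controls.

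TEK, the receptor of both angiopoietins, passed in 0 of 8 comparisons (limma), with a lowest unadjusted p of 0.104. It was 167, 179.8, 235 and 158 CPM in preterm controls (185 ± 34.5, n = 4), and 209.7, 204, 183 and 191 CPM in LPS 16h (197 ± 12.3, n = 4), the group with the narrowest spread. The log2 fold change at 16 hours was 0.11 ± 0.29 (adjusted p = 0.799, limma), -0.10 with libraries scaled to their total counts and 1.06 (0.063) with the endothelial covariate. TEK was 161, 82.6 and 207 CPM in LPS 5d, 124, 144 and 165 CPM in LPS + Beta-Ac, and 71.8 and 197 CPM in term controls. The pair of term controls thus differed by more than any 2 group means, and the log2 fold change of -0.62 ± 0.36 at term (adjusted p = 0.380, limma) was 0.11 without term control 1 and 0.04 without preterm control 4 and term control 1.

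TIE1, the partner receptor of TEK, was 286, 344, 276 and 262 CPM in preterm controls (292 ± 36.1, n = 4). LPS 16h had 194, 248, 182 and 200.2 CPM (206 ± 29.2, n = 4), all below the preterm controls, and TIE1 fell 1.42-fold (log2 fold change -0.51 ± 0.12, adjusted p = 0.00499, limma). LPS 5d had 268, 214 and 232 CPM, LPS + Beta-Ac had 223, 297 and 244 CPM, and term controls had 225 and 242 CPM. None of these 3 groups passed against preterm controls, although both term controls lay below the preterm range.

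Whether Beta-Ac changed these genes in LPS-exposed lungs was addressed by LPS + Beta-Ac against LPS 5d. By limma, 0 of the 9 genes passed or were called, also with limma-voom, and 0 had an unadjusted p below 0.05, where 0.104% of all genes passed and 0.104% were called. The largest differences were those of PGF, at -0.44 ± 0.41 (95% interval -1.32 to 0.44), and ANGPT1, at -0.31 ± 0.24 (-0.82 to 0.20). For KDR the difference was -0.07 with an interval from -0.37 to 0.23, and for ANGPT2 it was 0.04 with an interval from -0.41 to 0.49. With 3 animals in each group, the data did not show a difference, and the intervals do not show that the groups were alike.

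The course of the response to LPS was addressed by LPS 16h against LPS 5d. Of the 9 genes, 3 passed, KDR and VEGFC lower and ANGPT2 higher at 16 hours, and 0 were called, where 35.0% of all genes passed and 14.6% were called. ANGPT1 differed by 0.07 between these groups (interval -0.41 to 0.54).

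The level of the endothelial genes as a whole was described with the mean log2 CPM of 14 pan-endothelial markers, which include PECAM1, CDH5 and CLDN5. The mean was 7.41 ± 0.07 in preterm controls, 6.92 ± 0.16 in LPS 16h, 7.0 ± 0.20 in LPS 5d, 7.08 ± 0.20 in LPS + Beta-Ac and 6.94 ± 0.21 in term controls, so every group lay below the preterm controls. In LPS 16h, 12 of the markers were lower and 2, VWF and ROBO4, were higher. Mean CALCRL, a large part of the fall in the summed level, was 694 CPM in preterm controls. It was 320 CPM in LPS 16h, 256.5 in LPS 5d, 215 in LPS + Beta-Ac and 344 in term controls. Of the 14 markers, 5 passed in LPS 16h, 2 in LPS 5d, 2 in LPS + Beta-Ac and 2 in term controls, all lower. Of all genes, 38.3%, 14.7%, 17.3% and 3.99% passed in the same order. In the 3 LPS-exposed groups the share of markers that passed lay near that of all genes. Relative to the marker mean, log2 KDR was 1.44 ± 0.07 in preterm controls and 0.76 ± 0.20 in LPS 16h, again below every other animal. It was 1.45 ± 0.31 in LPS 5d, 1.31 ± 0.22 in LPS + Beta-Ac and 1.28 ± 0.18 in term controls. For TIE1 relative to the mean, the 5 group means lay between 0.76 and 0.93, and single animals ran from 0.57 to 1.02. TEK relative to the mean was 0.59 to 0.77 in LPS 16h and -0.03 to 0.47 in preterm controls, without overlap, and -0.40 to 0.62 in LPS 5d, -0.07 to 0.22 in LPS + Beta-Ac and -0.62 to 0.53 in term controls. ANGPT2 relative to the mean was -2.61 ± 0.29 in preterm controls, -1.95 ± 0.50 in LPS 16h, -3.02 ± 0.17 in LPS 5d, -3.05 ± 0.02 in LPS + Beta-Ac and -1.53 ± 0.18 in term controls.

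**Figure D4:**
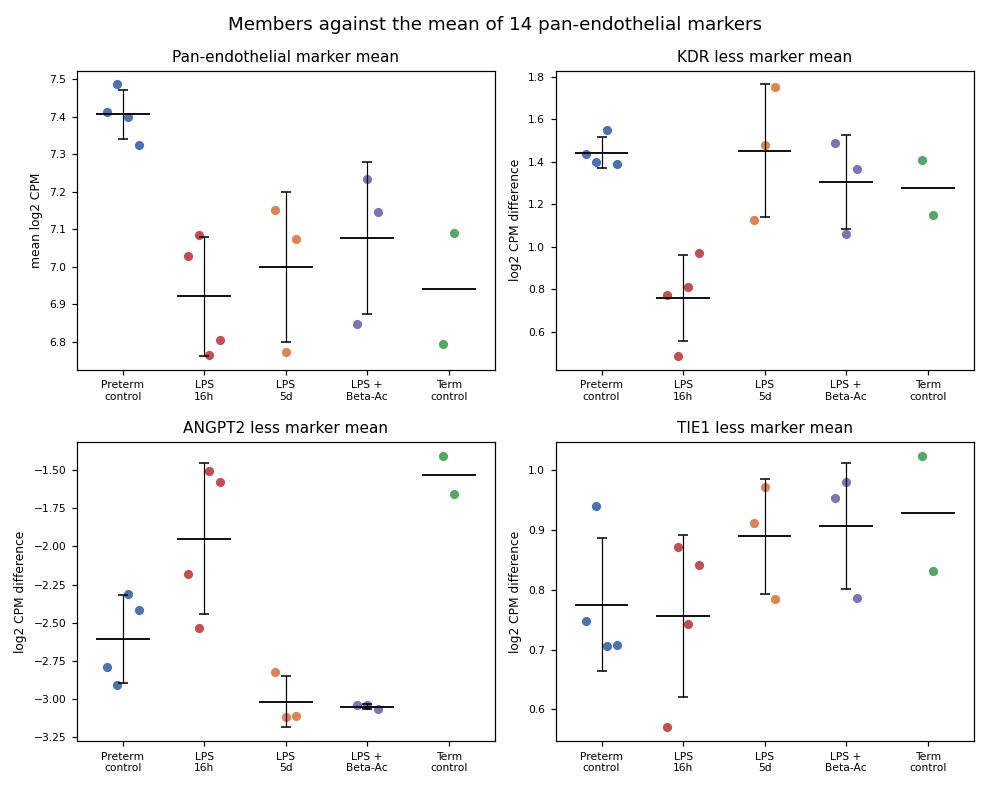
Mean log2 CPM of 14 pan-endothelial markers in each animal (top left) and the log2 CPM of KDR, ANGPT2 and TIE1 less that mean (other panels), by group, with mean (line) and SD (bar, groups of 3 or 4). The marker mean lies below the preterm controls in every other group, and KDR less the mean is 0.48 to 0.97 in LPS 16h against 1.06 to 1.75 in the other animals.

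With the marker mean as a covariate, KDR at 16 hours was the 1 gene that passed against preterm controls, and 0 of 9 passed in LPS 5d, LPS + Beta-Ac and term controls. ANGPT1 at 16 hours was then -0.29 (adjusted p = 0.623, limma) and TIE1 was -0.10 (0.747). ANGPT2 kept its size at 5 days, at -0.78 (0.18), and in LPS + Beta-Ac, at -0.74 (0.112), while ANGPT1 was -0.42 (0.523) in LPS 5d and -0.80 (0.0966) in LPS + Beta-Ac. The covariate was itself lower in each group than in the preterm controls, so it shares its variation with the groups.

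Other cell markers moved as well. The 5 markers of alveolar capillary cells, or aerocytes, a VEGFA-dependent endothelial type rich in KDR, summed to 942 to 1430 CPM in preterm controls. The sum was 469 to 630 CPM in LPS 16h and 691 to 784 in LPS 5d. LPS + Beta-Ac had 625 to 767 CPM and term controls 765 to 825. All 5 were lower in LPS 16h, with mean TBX2 falling from 400 to 154 CPM and EMP2 from 133 to 48.3. CA4 (34.15 to 134.9 CPM) and EDNRB (199.7 to 261.4) in LPS 16h overlapped the preterm controls. Whether these markers are limited to aerocytes in this tissue was not tested. The 5 general capillary markers summed to 551 to 617 CPM in preterm controls, 589 to 922 in LPS 16h, 445 to 516 in LPS 5d, 422 to 509 in LPS + Beta-Ac and 574 to 606 in term controls. These 5 markers split in LPS 16h, with 3 higher and 2 lower than in preterm controls. Mean LPL rose from 174 to 295 CPM, IL7R from 169 to 267 and PLVAP from 15.5 to 31.7. FCN3 fell from 217 to 124 CPM and GPIHBP1 from 5.44 to 0.709. The 5 lymphatic markers summed to 110 to 160, 127 to 135, 119 to 155, 79.8 to 142 and 155 to 181 CPM in the same order. Pericyte and smooth muscle markers, from cells that make ANGPT1, summed to 2580 to 3140 CPM in preterm controls, 1790 to 1910 in LPS 16h, 1710 to 1890 in LPS 5d, 1680 to 1950 in LPS + Beta-Ac and 1590 to 2050 in term controls. Fibroblast markers summed to 5970 to 10800 CPM in preterm controls, 5060 to 6670 in LPS 16h, 3370 to 7380 in LPS 5d, 3430 to 4980 in LPS + Beta-Ac and 3010 to 3890 in term controls, the last 2 groups below the preterm range. Most of this sum was COL1A1 and COL1A2, with means of 4386 and 3685 CPM in preterm controls. Mean TCF21 was 164 CPM in preterm controls, 43.0 in LPS 16h and 170 in LPS 5d. PDGFRA was 120, 140 and 95.8 CPM and LUM 500, 243 and 295 CPM in the same order. Alveolar epithelial markers summed to 3350 to 5730 CPM in preterm controls, 3330 to 8660 in LPS 16h and 6640 to 9600 in LPS 5d. LPS + Beta-Ac had 5630 to 9390 CPM and term controls 8760 to 10500, with LPS 5d and term above the preterm range. Most of this sum was SFTPC, with means of 2942 CPM in preterm controls and 4640 in LPS 16h. Of the 7 markers, 5 were lower and 2 higher in LPS 16h, and 2 were lower and 5 higher in LPS 5d. In LPS 16h mean HOPX fell from 156 to 63.6 CPM and AGER from 873 to 508.5, while ABCA3 rose from 191 to 757. Of 6 erythroid markers, 4 were measured, at 22.2 to 77.7 CPM in preterm controls, 39.7 to 107 in LPS 16h, 13.4 to 40.4 in LPS 5d, 56.1 to 62.5 in LPS + Beta-Ac and 15.7 to 23.6 in term controls.

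Other genes of the pathways were examined as lists against preterm controls. Of all genes, 38.3% passed in LPS 16h, 14.7% in LPS 5d, 17.3% in LPS + Beta-Ac and 3.99% in term controls. Among VEGFB, VEGFD, FLT4, NRP1 and NRP2, the remaining ligands, receptors and co-receptors, 4 of 5 passed in LPS 16h (3 lower, 1 higher), 2 in LPS 5d (both lower), 3 in LPS + Beta-Ac (2 lower, 1 higher) and 1 in term controls (lower). VEGFD, a ligand of FLT4 and KDR, was the gene called in all 3 LPS-exposed groups. It was 292, 198, 227 and 157 CPM in preterm controls and 31.8, 36.2, 23.6 and 37.3 CPM in LPS 16h, a 6.70-fold fall (log2 fold change -2.74 ± 0.20, adjusted p = 7.82e-08, limma). VEGFD was 85.5, 68.6 and 85.8 CPM in LPS 5d (-1.42 ± 0.22, adjusted p = 0.000887) and 64.6, 86.8 and 58.3 CPM in LPS + Beta-Ac (-1.63 ± 0.22, adjusted p = 0.000205). Term controls had 112 and 171 CPM, and all 3 LPS-exposed groups lay below both control groups. With the marker mean as a covariate, the change in LPS 5d was -0.98 and did not pass (adjusted p = 0.0798).

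ANGPT4, PTPRB, SVEP1, APLNR and APELA were the remaining genes of the angiopoietin and apelin systems. In LPS 16h, 3 of the 5 passed and were called, all lower, where 38.3% of all genes passed and 14.4% were called. In the other groups 0 passed (limma), with an unadjusted p below 0.05 for 1 gene in LPS 5d, 0 in LPS + Beta-Ac and 1 in term controls. The median log2 fold change of these 5 genes at 16 hours was -1.22, that of the 5 VEGF genes was -0.44 and that of all genes was -0.09. APLNR, the receptor of apelin, was 91.0, 100.3, 114 and 96.5 CPM in preterm controls and 68.8, 35.6, 31.2 and 44.2 CPM in LPS 16h (-1.22 ± 0.34, adjusted p = 0.0112, limma). ANGPT4, another ligand of TEK, had a mean of 2.83 CPM in preterm controls and 0.456 CPM in LPS 16h (-2.48 ± 0.46), and APELA, a second ligand of APLNR, had 2.29 and 0.952 CPM (-1.25 ± 0.33). These last changes rest on 13 to 77 counts per library. With the marker mean as a covariate, APLNR was -0.18 (adjusted p = 0.846), APELA -0.61 (0.487) and ANGPT4 -1.75 (0.135), and none of them passed.

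Of 14 endothelial genes known to respond to VEGF or to mark tip cells, 7 passed in LPS 16h (1 higher, 6 lower), 3 in LPS 5d (all lower), 0 in LPS + Beta-Ac (limma, 5 at an unadjusted p below 0.05) and 1 in term controls (lower). Of all genes, 38.3%, 14.7%, 17.3% and 3.99% passed in the same order. The median log2 fold change of these 14 genes at 16 hours was -0.35. VASH1, a feedback inhibitor of vessel growth that VEGF induces in endothelium, fell from a mean of 507 to 186 CPM in LPS 16h (-1.48 ± 0.18, adjusted p = 9.38e-06, limma), and HEY1, a target of Notch, fell from 32.9 to 15.4 CPM (-1.08 ± 0.24, adjusted p = 0.00268). With the marker mean as a covariate HEY1 was -0.33 (adjusted p = 0.568). RCAN1, a calcineurin regulator that responds to VEGF and to inflammatory signals, rose from 19.7 to 83.9 CPM (1.96 ± 0.27, adjusted p = 5.17e-05). UNC5B, a guidance receptor of tip cells, was 106.9 CPM in preterm controls and 52.4 CPM at term (-1.0 ± 0.21, adjusted p = 0.0184), a call lost without term control 1 (0.118) or 2 (0.0814), without preterm control 4 and term control 1 together (-1.12, 0.0574), in a fit of these 2 groups alone (-0.98, 0.0723) and with the marker mean as a covariate (-0.87, 0.327).

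Of 7 measured hypoxia-inducible factors and regulators, which control VEGFA and FLT1 in low oxygen, 4 passed in LPS 16h (3 higher, 1 lower), 1 in LPS + Beta-Ac (higher), and 0 in LPS 5d and term controls (limma, 4 and 3 at an unadjusted p below 0.05). The median log2 fold change of these 7 genes at 16 hours was 0.15, where 38.3% of all genes passed. HIF1A was 150.0, 126, 149 and 115 CPM in preterm controls and 383, 271, 440.3 and 476 CPM in LPS 16h, with no overlap (1.52 ± 0.16, adjusted p = 2.88e-06, limma). HIF1A is abundant in leukocytes, and their part in its level was not tested. In the same comparison VEGFA did not pass (adjusted p = 0.161, limma), but it passed, lower, with libraries scaled to their total counts (0.00777). That scaling moved the median of all genes to -0.29, and VEGFA was -0.17 relative to it. Whether the 2 genes were linked was not tested. Against LPS 5d, LPS 16h was higher for HIF1A (2.01 ± 0.17), RCAN1 (2.47 ± 0.30) and EGLN3 (1.41 ± 0.30), a hydroxylase that marks these factors for breakdown. In that comparison it was lower for VEGFD (-1.32 ± 0.22), APELA (-1.73 ± 0.35), VASH1 (-1.0 ± 0.19) and HIF3A (-1.26 ± 0.20), a member of the family that can restrain the others. ANGPT4 was also called there (-1.49 ± 0.49, adjusted p = 0.0285, limma), a call lost without LPS 16h animal 3 (0.0723) or 4 (0.0554) or LPS 5d animal 1 (0.169) or 3 (0.0644), and with limma-voom (-1.64, 0.0746). In LPS + Beta-Ac against LPS 5d, and in LPS 5d and LPS + Beta-Ac against term controls, 0 genes of the 4 lists passed (limma). The shares of all genes that passed there were 0.104%, 0.0990% and 0.734%. Of the genes on the 4 lists, 1 had an unadjusted p below 0.05 in the first comparison, 5 in LPS 5d and 7 in LPS + Beta-Ac against term controls.

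**Figure D5:**
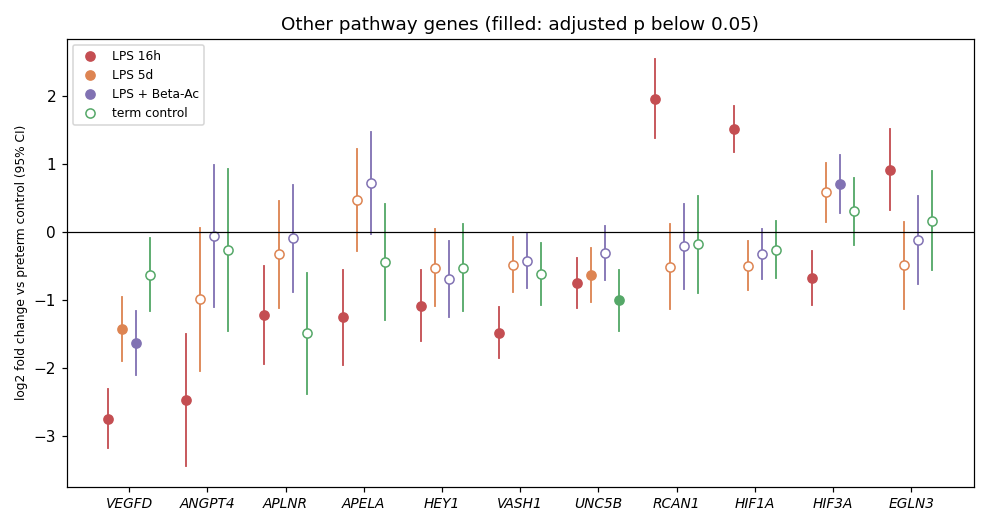
Log2 fold change against preterm controls (points, with 95% confidence intervals) of the 11 other pathway genes called in at least 1 comparison, in the 4 other groups; filled points have an adjusted p below 0.05. VEGFD is below 0 with filled points in all 3 LPS-exposed groups (-2.74, -1.42 and -1.63), and HIF1A and RCAN1 are above 0 with filled points in LPS 16h.

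The genes differed in how they varied from animal to animal. As a description over 16 animals that share group and depth, the highest Pearson correlations of log2 CPM with KDR were those of IGSF11 (0.957), TSPAN12 (0.952) and TRIL (0.942). TSPAN12 is a co-receptor component of Norrin signaling in vessels. For TIE1 they were RAMP2 (0.897), RAI2 (0.888) and ARGLU1 (0.879), and RAMP2 is itself 1 of the 14 endothelial markers. For TEK they were ITGA6 (0.870), EPAS1 (0.864) and FAM124B (0.852), and for FLT1 they were HEG1 (0.910), DDX46 (0.877) and RBM28 (0.872). ANGPT1 was closest to C13H2orf49 (0.929), MARCHF7 (0.928) and CDC40 (0.919), and ANGPT2 to POGLUT1 (0.878), P2RY14 (0.853) and AGGF1 (0.845). VEGFA was closest to PYGM (0.851), WTIP (0.841) and PPP1R16A (0.838), VEGFC to TMEM44 (0.884), PAQR7 (0.857) and CPLANE2 (0.855), and PGF to ELFN1 (0.862), RTKN (0.856) and VWCE (0.842).

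Among the 9 genes themselves, with group means removed, the highest correlations were those of FLT1 with TEK (0.817), VEGFC with TIE1 (0.80) and ANGPT1 with TEK (0.713). VEGFA ran against ANGPT1 (-0.630), TEK (-0.611) and FLT1 (-0.587) on the same scale. Term control 1 was the highest animal for VEGFA (1670 CPM) and the lowest for TEK (71.8) and FLT1 (25.2). The correlations were not computed without that animal. KDR and FLT1, the receptors of VEGFA, correlated at 0.660 within groups and at -0.290 over all 16 animals.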

How the data were processed

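Poly(A)-selected lung RNA was sequenced as 75 bp paired-end reads. The authors assigned reads to the rhesus build MMUL10 with kallisto and used tximport for gene-level totals, and deposited unnormalized whole-number counts for each Ensembl gene in each animal (versions not stated). The table's layout could not be read by an automatic check of units, so count models were replaced by limma. Counts were scaled with trimmed means of log ratios (30% and 5% trimmed), turned into log2 CPM (prior count 2) and fitted with limma 3.58.1 (trend and robust options, R 4.3.3) with 1 mean per group over 16 animals. Genes were tested where 2 or more animals reached 0.371 CPM and all counts summed to 15 or more (19199 of 22515). Tests are two-sided, and p-values were adjusted over all genes tested. Groups came from the labels. Named genes were the 9 with a row, the pathway genes called in a comparison, and the 3 genes closest to each of the 9. The genes and lists were chosen with earlier results of these data known. Steps were tested on simulated data. Alternatives were another scaling, filter, prior count or test, fits of 2 groups, an endothelial covariate and leaving out animals. Total-count scaling and leaving out preterm control 4 and term control 1 together were chosen after seeing the data. Coordinates and sequences were not used here.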

Additional observations from a re-analysis of the deposited data

Results flagged for a closer look

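FLT1 in LPS 16h animal 2, at 5.98 log2 CPM, lay far below the other 3 animals of its group, which were between 6.71 and 6.78. The gap was 0.913 of the range of the group. It was the 1 outlier among 18 tests of groups of 4 animals, of which chance flags about 1 in 20.

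In the direct comparison of LPS 16h with LPS 5d, 3 of the 9 genes passed (limma), where 35.0% of all genes passed, so the share of the 9 was near the background. KDR was lower at 16 hours by a log2 fold change of -0.77 and ANGPT2 was higher by 0.99. VEGFC was lower by -0.45, a difference that was lost without LPS 16h animal 1, 3 or 4 or LPS 5d animal 1 (adjusted p = 0.0627 to 0.230, limma), in a fit of the 2 groups alone (0.0991), with the endothelial covariate (0.058) and without preterm control 4 and term control 1 (0.0522).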

How the results depend on the processing

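Over 43 gene results and the alternatives other than leaving out 1 animal, 351 of 387 values kept their direction and their side of the threshold, 28 lost it, 3 gained it and 5 reversed. When single animals were left out, 269 of 309 values were unchanged in this sense, 34 lost the threshold, 4 gained it and 2 reversed. The reversed values did not pass before or after. They were TEK at term with the endothelial covariate (0.29), TEK (0.04) and VEGFA (-0.05) at term without preterm control 4 and term control 1, and ANGPT2 (-0.03) and TEK (-0.10) in LPS 16h with total-count scaling. With each term control left out, VEGFA at term was -0.03 to 0.5 and TEK 0.11 to -1.34, both reversed without term control 1. The cause was not tested.

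Total-count scaling moved the median of all genes in LPS 16h from -0.09 to -0.29. Relative to that median, VEGFA was -0.17, VEGFC was -0.30, ANGPT2 was 0.26 and TEK was 0.19. With it 5 of 9 genes passed in LPS 16h against preterm controls and 5 against LPS 5d, VEGFA (-0.46, adjusted p = 0.00777, limma) and VEGFC (-0.59, 0.00363) among the first, and 0 passed at term. With no minimum on the fold change the called genes numbered 3 in LPS 16h, 2 in LPS 5d, 3 in LPS + Beta-Ac and 1 at term against preterm controls, and 3 in LPS 16h against LPS 5d. With median-of-ratios scaling 1 gene, ANGPT2, was called in LPS 16h against LPS 5d. With the endothelial covariate 1 gene passed in LPS 16h, 0 in LPS 5d, 0 (and 0 called) in LPS + Beta-Ac and 0 at term against preterm controls, and 0 passed or were called in LPS 5d against term controls. In fits of only the 2 groups compared, 0 passed at term against preterm controls, and 0 passed or were called in LPS 5d and in LPS + Beta-Ac against term controls, while FLT1 passed in LPS 16h (0.81, 0.0166). Without preterm control 4 and term control 1, 0 passed at term and 0 passed or were called in LPS 5d against term controls.

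With each animal left out in turn, genes that passed numbered 2 to 5 in LPS 16h, 0 to 3 in LPS 5d, 1 to 3 in LPS + Beta-Ac and 0 to 1 at term against preterm controls. They numbered 2 to 4 in LPS 16h against LPS 5d, 0 to 0 in LPS 5d against term controls and 0 to 1 in LPS + Beta-Ac against term controls. Genes called numbered 1 to 1 in LPS 16h and 0 to 1 in LPS + Beta-Ac against preterm controls, 0 to 1 in LPS 16h against LPS 5d, and 0 to 0 and 0 to 1 in LPS 5d and LPS + Beta-Ac against term controls. A lone term control was then assumed to vary like the other groups.

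Over all genes, called counts moved by more than 1.5 times in these cases. For LPS + Beta-Ac against LPS 5d, 20 became 3 with limma-voom, 0 in 2-group fits, 6 with the covariate and 34 without preterm control 4 and term control 1. For LPS 5d against term controls, 12 became 7, 0, 4 and 1 under the same alternatives. For term against preterm controls, 397 became 98 in 2-group fits, 8 with the covariate and 242 without that pair. For LPS + Beta-Ac against term controls, 109 became 13 in 2-group fits. With the covariate, 2758 became 1593 in LPS 16h, 928 became 272 in LPS 5d and 1247 became 735 in LPS + Beta-Ac, against preterm controls. A fit with the count model the authors used was not run, because the automatic check of units could not read the layout of the table of counts. No paired analysis was possible because the labels give animals no replicate numbers shared across groups. Groups of 2 to 4 animals and the lowest counts, those of PGF, limited the precision.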
